A study of Mus musculus with 14 samples.

Results

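The genes described here encode 8 surface proteins, the ligand PD-L2 among them, through which macrophages and other antigen presenting cells exchange costimulatory or inhibitory signals with T cells: Pdcd1lg2 (encoding PD-L2), Cd274 (PD-L1), Cd80, Cd86, Cd40, Icosl, Cd276 and Tnfsf9. They were found on the array by matching the accession of each probe to its RefSeq gene symbol, which gave 9 probes of 55681. Cd80 had 2 probes and the other genes had 1 each, and all 8 genes were among the 20347 that were tested. RNA came from peritoneal macrophages of C57BL/6 mice, sorted for the macrophage proteins encoded by Itgam (CD11b) and Adgre1, and was hybridised to 14 one-colour arrays. The mice had received an injection into the peritoneum of thioglycollate with IL-4 complex (Thio+IL-4c, 4 arrays), thioglycollate alone (Thio, 3 arrays), IL-4 complex alone (IL-4c, 4 arrays) or the PBS vehicle (PBS, 3 arrays). The complex joined 5 µg of IL-4 to 25 µg of the antibody 11B11, so that the cytokine acts for longer, and thioglycollate was 2 ml of a 4% broth, an irritant that draws blood monocytes into the cavity. The series set macrophages derived from recruited monocytes against macrophages already resident in the tissue, and asked how each responds to IL-4. Neither the age and sex of the mice nor the time between injection and sort is given in the labels, which also do not state whether the arrays of a group came from separate animals. The p-values therefore measure only the spread between these arrays.

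PD-L1 and PD-L2 bind the inhibitory receptor PD-1 on T cells. PD-L1 is made by many cell types and is known for its induction by interferons, whereas PD-L2 is found mainly on dendritic cells, macrophages and some B cells and is known for its induction by IL-4 through the transcription factor STAT6. CD80 and CD86 bind the activating receptor CD28 and the inhibitory receptor CTLA-4. CD40 receives a signal from T cells that licenses the antigen presenting cell, ICOSL binds ICOS, CD276 (B7-H3) has activating and inhibitory effects on T cells through receptors that are not settled, and the product of Tnfsf9 activates T cells through the receptor encoded by Tnfrsf9.

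Pdcd1lg2 and Cd274 lie beside each other on mouse chromosome 19. Their promoter windows are shown because the results for the pair turn on how these neighbours differed in their response to IL-4 complex. RefSeq (GRCm38.p6) gave a window of 300 bases, from 250 before to 50 after the annotated start, for 5 of the 8 genes, and the G and C content was 46.0% for Pdcd1lg2 and 52.7% for Cd274.
Pdcd1lg2, chr19:29410669-29410968, plus strand: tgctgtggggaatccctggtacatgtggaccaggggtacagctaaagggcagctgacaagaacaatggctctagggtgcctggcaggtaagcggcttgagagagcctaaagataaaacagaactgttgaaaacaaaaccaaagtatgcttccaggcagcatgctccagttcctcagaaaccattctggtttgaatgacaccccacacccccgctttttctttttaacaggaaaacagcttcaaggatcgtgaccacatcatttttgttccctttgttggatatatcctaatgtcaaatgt
Cd274, chr19:29367188-29367487, plus strand: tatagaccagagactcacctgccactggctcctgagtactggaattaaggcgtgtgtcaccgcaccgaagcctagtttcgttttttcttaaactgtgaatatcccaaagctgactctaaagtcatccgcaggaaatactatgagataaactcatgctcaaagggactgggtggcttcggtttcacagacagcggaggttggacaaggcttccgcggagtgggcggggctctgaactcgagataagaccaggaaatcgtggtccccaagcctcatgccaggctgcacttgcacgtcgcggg

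Brightness was taken as the 75th percentile of each array's processed signal. It spanned 1275 to 3883 and was higher on every IL-4c array (3059 to 3883) than on every PBS array (1275 to 1819). The share of probes well above background was 79.2% to 95.7%, and the 9 probes of the 8 genes were among them on every array, except that of Cd276 on IL-4c array 2. Levels below are log2 signals relative to that percentile of the same array. They are comparable between arrays for 1 probe but not between probes. IL-4c versus PBS differences are thus relative to array brightness. Of the genes whose level fell there, unscaled Tnfsf9 signals were 569 to 711 on the IL-4c and 396 to 516 on the PBS arrays. The unscaled signals of Cd80 (brighter probe), Cd86, Cd40 and Icosl overlapped between those groups. The PBS and IL-4c arrays and Thio array 1 shared a slide, and Thio arrays 2 and 3 and the Thio+IL-4c arrays shared the other. Thio array 1 correlated across genes with the other Thio arrays at r of 0.850 to 0.867 and with the PBS arrays at 0.918 to 0.931, while other pairs within a group reached 0.957 to 0.988. For the 8 genes, comparisons that use the Thio group are therefore also given without that array (for Cd80 with the brighter probe), and counts over lists are given without it where they differ. Leaving it out removes the only Thio array on the slide of the PBS arrays. Thio versus PBS is then fully confounded with slide. The sorted macrophage markers were present in every group: Itgam (CD11b) had a mean log2 level of 4.23 in Thio+IL-4c, 4.14 in Thio, 5.79 in IL-4c and 5.95 in PBS cells, and Adgre1, the other sort marker, of 3.53, 4.73, 6.27 and 6.54 in that order of groups. Arg1, an arginase that IL-4 induces, rose by 3.65 (SE 0.20) in Thio+IL-4c versus Thio cells and by 4.06 (SE 0.20) in IL-4c versus PBS cells, with adjusted p of 9.3e-08 and 5.7e-08 in limma's fit.

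Pdcd1lg2 was high where thioglycollate and IL-4 complex were combined. Its log2 level was 2.65, 2.48, 2.55 and 1.84 on the Thio+IL-4c arrays, -1.11, -0.84 and -0.85 on the Thio arrays, -2.13, -1.90, -1.61 and -1.59 on the IL-4c arrays, and -2.10, -2.26 and -2.46 on the PBS arrays. Every Thio+IL-4c array lay above every other array, and every Thio array above every IL-4c and PBS array, whereas the IL-4c and PBS arrays overlapped. Before scaling, the signals were 779 to 1063 on the IL-4c and 231 to 422 on the PBS arrays, without overlap. In elicited cells the gene rose by a log2 difference of 3.31 (SE 0.20, adjusted p = 2.1e-07), 9.95-fold, which was the rise of rank 116 among all genes. In resident cells the log2 difference of IL-4c versus PBS was 0.47 (95% interval 0.02 to 0.91, adjusted p = 0.11) and was not called. As these are bulk samples, fewer cells of a type and less RNA per cell cannot be told apart. The study itself is known to have pursued PD-L2 in these cells, so these values are no independent evidence for it.

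The interaction subtracts the response of resident cells to IL-4 complex from the response of elicited cells. It was 2.85 for Pdcd1lg2 (SE 0.29, adjusted p = 2.1e-05). Thio cells already exceeded PBS cells in Pdcd1lg2 by a log2 difference of 1.34 (SE 0.22, adjusted p = 0.00045). Under IL-4 complex, Thio+IL-4c cells exceeded IL-4c cells by 4.19 (SE 0.19, adjusted p = 1.2e-08), 18.2-fold. Those groups shared no slide, so that difference could not be read within a slide. Within a slide, Thio+IL-4c arrays minus Thio arrays 2 and 3 gave 3.23, the IL-4 complex effect in elicited cells. Thio array 1 alone minus the PBS arrays gave 1.17. Without Thio array 1 the Thio versus PBS difference was 1.43 and the interaction 2.76. The IL-4c versus PBS call depended on the setting, since its adjusted p was 0.040 with array weights and 0.036 without Thio+IL-4c array 4, and ran up to 0.31 over all settings.

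**Figure D1:**
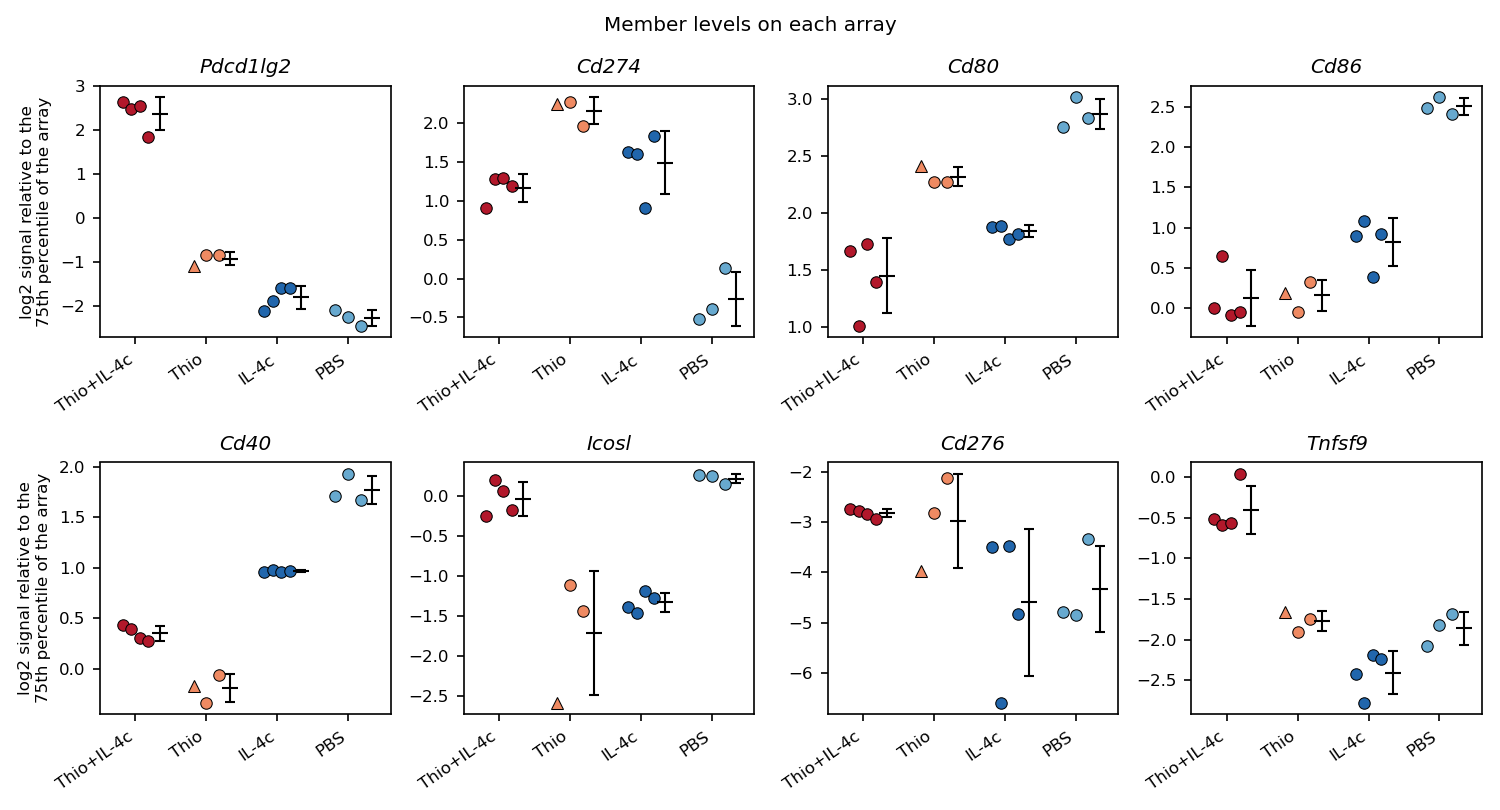
Log2 signal relative to the 75th percentile of the array, on each array (points) with group mean and SD (bars), for the 8 genes in Thio+IL-4c, Thio, IL-4c and PBS cells; the triangle is Thio array 1, and each panel has its own axis. Pdcd1lg2 sits between 1.84 and 2.65 on the Thio+IL-4c arrays, above all other arrays, while Cd80, Cd86 and Cd40 are highest in PBS cells.

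Cd274 moved against its neighbour under IL-4 complex in elicited cells, while both genes were higher in Thio than in PBS cells. Its log2 level was 0.91, 1.28, 1.29 and 1.20 on the Thio+IL-4c arrays, 2.25, 2.27 and 1.96 on the Thio arrays, 1.62, 1.60, 0.91 and 1.83 on the IL-4c arrays, and -0.52, -0.40 and 0.14 on the PBS arrays. The PBS arrays were below all others and the Thio arrays above all others, while the Thio+IL-4c and IL-4c arrays overlapped. In resident cells Cd274 rose by a log2 difference of 1.75 (SE 0.22, adjusted p = 7.3e-05) in IL-4c versus PBS, 3.37-fold. In elicited cells it fell by 0.99 on the log2 scale in Thio+IL-4c versus Thio (SE 0.22, adjusted p = 0.0038).

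The interaction for Cd274 was -2.75 (SE 0.32, adjusted p = 5.4e-05), close in size to that of Pdcd1lg2 with the opposite sign. Thio cells exceeded PBS cells by a log2 difference of 2.42 (SE 0.24, adjusted p = 8.8e-06), the largest of the 8 genes in that comparison. Without Thio array 1 these differences were -0.95 for Thio+IL-4c versus Thio, -2.70 for the interaction and 2.38 for Thio versus PBS. Between the IL-4 complex groups the log2 difference of Thio+IL-4c versus IL-4c was -0.32 (95% interval -0.78 to 0.13, adjusted p = 0.18). That last value passed the threshold when arrays were scaled to their median (-0.65), in the authors' deposited table (-0.71) and without IL-4c array 3 (-0.52). PD-L1 and PD-L2 thus had levels that ranked the groups differently: Thio, IL-4c, Thio+IL-4c, PBS for Cd274 from high to low, and Thio+IL-4c, Thio, IL-4c, PBS for Pdcd1lg2.

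**Figure D2:**
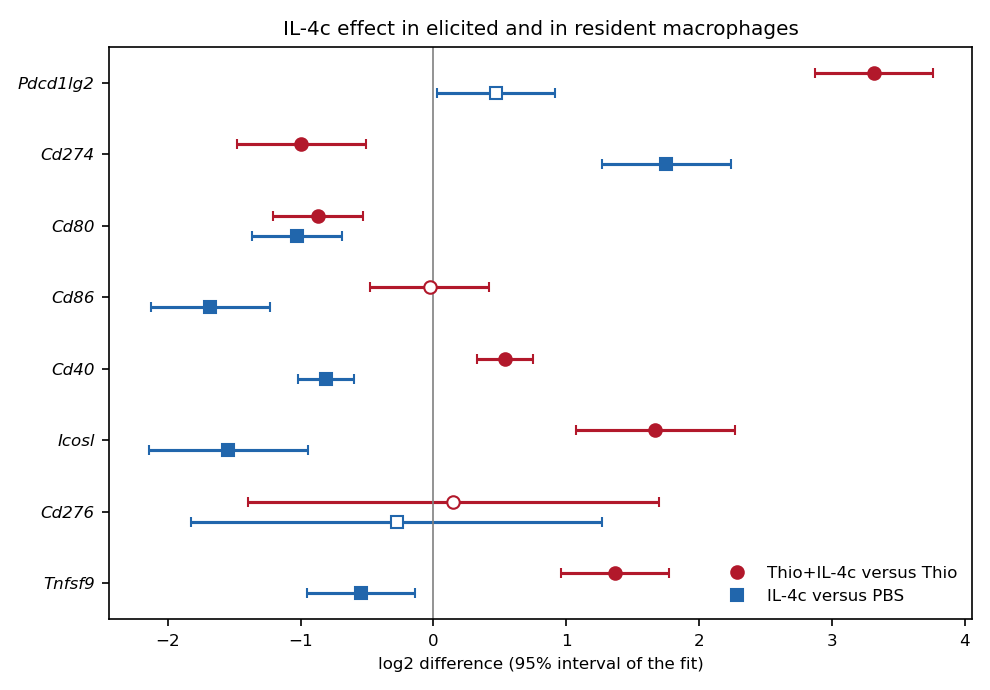
Log2 difference with its 95% interval for IL-4 complex in elicited cells (Thio+IL-4c versus Thio, circles) and in resident cells (IL-4c versus PBS, squares) for each of the 8 genes; filled symbols passed an adjusted p of 0.05 and open ones did not. Cd274, Cd40, Icosl and Tnfsf9 passed in both kinds of cell with opposite signs, and Pdcd1lg2 passed in elicited cells with 3.31.

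The CD28 and CTLA-4 ligands Cd80 and Cd86 were highest in PBS cells. Cd86 had log2 levels of 0.00, 0.65, -0.08 and -0.04 on the Thio+IL-4c arrays, 0.19, -0.04 and 0.33 on the Thio arrays, 0.90, 1.08, 0.39 and 0.92 on the IL-4c arrays, and 2.49, 2.61 and 2.41 on the PBS arrays. All PBS arrays were above all others, and the Thio+IL-4c and Thio arrays overlapped. Cd86 fell by 1.68 on the log2 scale in IL-4c versus PBS cells (SE 0.20, adjusted p = 5.2e-05) and fell by 2.34 in Thio versus PBS cells (SE 0.22, adjusted p = 5.9e-06). In elicited cells the log2 difference of Thio+IL-4c versus Thio was -0.03 (95% interval -0.48 to 0.42, adjusted p = 0.91). The IL-4c effects differed between the kinds of cell by an interaction of 1.65 (SE 0.29, adjusted p = 0.0010). When Thio array 1 was left out, the Thio versus PBS difference was -2.36 and the interaction 1.67, and that of Thio+IL-4c versus Thio was -0.014. Thio+IL-4c versus IL-4c gave -0.69 (SE 0.19, adjusted p = 0.0065), with arrays that overlapped.

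For Cd80 the brighter probe read 1.67, 1.01, 1.72 and 1.40 (log2 level) on the Thio+IL-4c arrays, 2.41, 2.27 and 2.27 on the Thio arrays, 1.88, 1.88, 1.77 and 1.81 on the IL-4c arrays, and 2.75, 3.01 and 2.83 on the PBS arrays. No groups overlapped. That probe fell by 1.03 on the log2 scale in IL-4c versus PBS cells (SE 0.15, adjusted p = 0.00026) and fell by 0.87 in Thio+IL-4c versus Thio cells (SE 0.15, adjusted p = 0.00078), and its interaction was 0.16 (95% interval -0.32 to 0.64, adjusted p = 0.59). The dimmer probe disagreed in elicited cells. It read -1.53, -1.58, -1.57 and -1.15 on the Thio+IL-4c arrays against -1.95, -1.78 and -2.01 on the Thio arrays, a log2 difference of 0.45 (SE 0.14, adjusted p = 0.025 in a fit over probes). In resident cells the dimmer probe differed by -0.33 in IL-4c versus PBS (SE 0.14, adjusted p = 0.11), and its interaction was 0.78 (SE 0.20, adjusted p = 0.011). The direction of Cd80 under IL-4 complex in elicited cells is therefore uncertain.

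Both probes were lower in Thio than in PBS cells, with log2 differences of -0.55 (SE 0.17, adjusted p = 0.020) for the brighter and -0.91 (SE 0.15, adjusted p = 0.00058) for the dimmer. The first of these was no longer called with slide as a block (-0.45), in a fit of those groups alone (-0.55), or without PBS array 2, Thio array 2 or Thio array 3 (-0.53 to -0.48). For Thio+IL-4c versus IL-4c the brighter probe fell by 0.39 (SE 0.14, adjusted p = 0.030) and the dimmer differed by -0.13 (SE 0.13, adjusted p = 0.39). The call for the brighter probe was lost without IL-4c array 1, 2 or 4 and without Thio+IL-4c array 2 or 4, with differences of -0.40 to -0.24. With Thio array 1 left out, the brighter probe gave -0.82 for Thio+IL-4c versus Thio, -0.60 for Thio versus PBS and 0.21 for the interaction.

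Cd40, the receptor for help from T cells, had log2 levels of 0.43, 0.40, 0.30 and 0.27 on the Thio+IL-4c arrays, -0.17, -0.34 and -0.06 on the Thio arrays, 0.96, 0.98, 0.96 and 0.97 on the IL-4c arrays, and 1.72, 1.93 and 1.68 on the PBS arrays. The 4 groups were fully separated. Cd40 rose by a log2 difference of 0.54 (SE 0.10, adjusted p = 0.00083) in Thio+IL-4c versus Thio cells. In resident cells it fell by 0.81 in IL-4c versus PBS (SE 0.10, adjusted p = 4.6e-05), and the interaction was 1.35 (SE 0.14, adjusted p = 2.2e-05). Thio cells were lower than PBS cells by a log2 difference of -1.97 (SE 0.10, adjusted p = 5.7e-08), and Thio+IL-4c cells lower than IL-4c cells by -0.62 (SE 0.09, adjusted p = 0.00011). Leaving out Thio array 1 gave 0.55 for Thio+IL-4c versus Thio, 1.36 for the interaction and -1.97 for Thio versus PBS.

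Icosl, the ligand of ICOS, had log2 levels of -0.25, 0.20, 0.06 and -0.19 on the Thio+IL-4c arrays, -2.59, -1.11 and -1.44 on the Thio arrays, -1.39, -1.46, -1.19 and -1.28 on the IL-4c arrays, and 0.25, 0.24 and 0.15 on the PBS arrays. Thio+IL-4c overlapped PBS, Thio overlapped IL-4c, and the 2 pairs were apart from each other. Icosl rose by a log2 difference of 1.67 (SE 0.27, adjusted p = 0.00041) in Thio+IL-4c versus Thio cells, and by 1.24 without Thio array 1, where the gene was lowest. In resident cells it fell by 1.55 in IL-4c versus PBS (SE 0.27, adjusted p = 0.00085). The interaction of 3.22 (SE 0.39, adjusted p = 7.3e-05) was the largest of the 8 genes, and was 2.78 without Thio array 1. Thio cells fell by 1.93 on the log2 scale relative to PBS cells (SE 0.29, adjusted p = 0.00028), and by 1.49 without Thio array 1. The Thio versus PBS difference was -2.80 with slide as a fixed block. Thio+IL-4c cells exceeded IL-4c cells by a log2 difference of 1.29 (SE 0.25, adjusted p = 0.00083), which was -0.02 with slide as a fixed block.

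Tnfsf9, a TNF family ligand, had log2 levels of -0.52, -0.58, -0.56 and 0.04 on the Thio+IL-4c arrays, -1.66, -1.91 and -1.75 on the Thio arrays, -2.42, -2.77, -2.19 and -2.24 on the IL-4c arrays, and -2.08, -1.82 and -1.69 on the PBS arrays. Every Thio+IL-4c array was above every other array, as for Pdcd1lg2, and the Thio and PBS arrays overlapped. The gene rose by a log2 difference of 1.36 (SE 0.19, adjusted p = 0.00010) in Thio+IL-4c versus Thio cells and by 2.00 (SE 0.17, adjusted p = 1.9e-06) in Thio+IL-4c versus IL-4c cells. The interaction was 1.91 (SE 0.26, adjusted p = 0.00020). In resident cells it fell by 0.54 in IL-4c versus PBS (SE 0.19, adjusted p = 0.043), a call that was lost under 8 of the 14 single-array omissions (PBS arrays 2 and 3, IL-4c arrays 1 and 2, Thio array 3 and Thio+IL-4c arrays 1, 2 and 3) and under 4 of 13 other settings, with adjusted p of 0.015 to 0.19 over all. Thio versus PBS differed by 0.09 (95% interval -0.35 to 0.53, adjusted p = 0.72). Leaving out Thio array 1 gave 1.42 for Thio+IL-4c versus Thio, 1.97 for the interaction and 0.03 for Thio versus PBS.

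Cd276 was dim and varied most between arrays, with log2 levels of -2.74, -2.77, -2.85 and -2.93 on the Thio+IL-4c arrays, -3.97, -2.81 and -2.13 on the Thio arrays, -3.50, -6.59, -3.48 and -4.82 on the IL-4c arrays, and -4.79, -4.84 and -3.33 on the PBS arrays. Only the Thio+IL-4c and IL-4c arrays were apart among the pairs compared. That pair gave a log2 difference of 1.78 (SE 0.65, adjusted p = 0.029), which was 1.11 without IL-4c array 2, the array on which the probe was not well above background. The call was lost in 6 of the 14 single-array omissions (IL-4c arrays 2 and 4 and each of the 4 Thio+IL-4c arrays). The other comparisons were not called, with log2 differences of 0.15 (95% interval -1.40 to 1.70) for Thio+IL-4c versus Thio, -0.28 (-1.82 to 1.27) for IL-4c versus PBS and 1.35 (SE 0.75, adjusted p = 0.16) for Thio versus PBS, and an interaction of 0.43 (-1.76 to 2.61). The Thio versus PBS difference of Cd276 was 2.01 with array weights, where it was called (adjusted p = 0.022), 1.85 without Thio array 1 (adjusted p = 0.063) and 0.35 with slide as a fixed block (adjusted p = 0.85). Without Thio array 1 its difference of Thio+IL-4c versus Thio was -0.35 and its interaction -0.075.

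Set beside all genes, 4 of the 8 rose and 2 fell in Thio+IL-4c versus Thio cells, where 39.4% of all genes were called, 16.2% higher and 23.1% lower. The median log2 difference of the 8 was 0.35 and that of all genes 0.03. IL-4c versus PBS cells had 1 of the 8 higher and 5 lower, where 32.2% of all genes were called (16.9% higher, 15.3% lower), with medians of -0.68 and -0.01. In the interaction 5 of the 8 were called higher and 1 lower, against 32.7% of all genes called (12.7% higher, 19.9% lower), with medians of 1.499 and -0.05.

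Thio versus PBS cells had 2 of the 8 higher and 4 lower where 44.5% of all genes were called (20.2% higher, 24.2% lower), with medians of -0.23 for the 8 and -0.09 for all genes. Without Thio array 1 these counts of the 8 were the same, while the genes called were 13875 of 20347, against 9051 with it. Thio+IL-4c versus IL-4c cells had 4 higher and 3 lower where 70.0% of all genes were called (27.9% higher, 42.2% lower), with medians of 0.48 and -0.21. Slide and group were almost fully confounded there: with slide as a block, tied only by Thio array 1, the called genes of the 8 were 2 higher and 1 lower, Pdcd1lg2, Tnfsf9 and Cd40, and the Icosl difference was -0.02. In each of the 4 comparisons the arrays of 6 of the 8 genes did not overlap, where the share of all genes without overlap was 44.6% for Thio+IL-4c over Thio, 53.3% for IL-4c over PBS, 42.6% for Thio over PBS and 72.6% for Thio+IL-4c over IL-4c. The shares of all genes called in each comparison are the background for the list counts below as well. For fits without Thio array 1, the count over all genes is given for Thio versus PBS alone.

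The genes around the PD-L1 and PD-L2 locus were compared in their RefSeq order along chromosome 19, which is Insl6, Rln1, Plgrkt, Cd274, Pdcd1lg2, Ric1, Ermp1 and Mlana. Of the 6 flanking genes, 3 fell in Thio+IL-4c versus Thio cells and none rose, where 23.1% of all genes were called lower and 16.2% higher. The 3 were Insl6, of the relaxin family, by -0.63 (SE 0.17), Plgrkt, a plasminogen receptor, by -0.52 (SE 0.13), and Ric1, a trafficking factor, by -0.64 (SE 0.10), with adjusted p of 0.013, 0.0060 and 0.00036. In IL-4c versus PBS cells, where 16.9% of all genes were called higher and 15.3% lower, the same 3 genes rose. Their log2 differences were 1.40 (SE 0.17), 0.83 (SE 0.13) and 0.41 (SE 0.10), with adjusted p of 6.0e-05, 0.00029 and 0.0081. Their interactions of -2.03, -1.35 and -1.04 (adjusted p of 7.8e-05, 0.00015 and 0.00020) had the sign of Cd274 (-2.75), and that of Pdcd1lg2, between Cd274 and Ric1, was 2.85. Without Thio array 1 the 3 falls were -0.57, -0.36 and -0.67 for Insl6, Plgrkt and Ric1 and were still called. Rln1, Ermp1 and Mlana were not called in either IL-4c comparison.

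**Figure D3:**
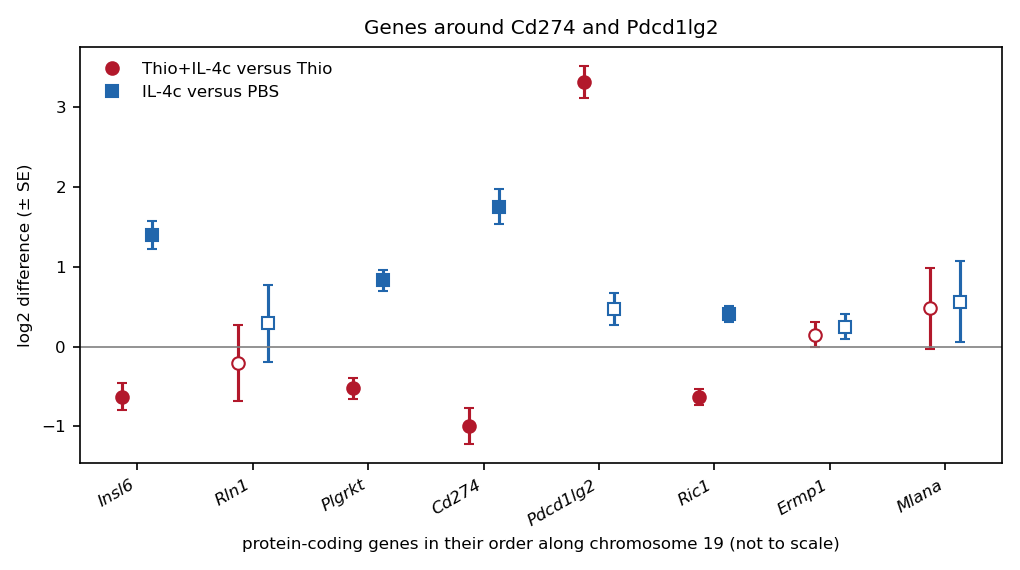
Log2 difference with its SE for IL-4 complex in elicited cells (Thio+IL-4c versus Thio, circles) and in resident cells (IL-4c versus PBS, squares) for genes in their order along chromosome 19; filled symbols passed an adjusted p of 0.05. Pdcd1lg2 stands at 3.31 in elicited cells, where Insl6, Plgrkt, Cd274 and Ric1 lie below 0.

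Among 16529 genes that were well above background on at least 12 arrays, those whose level followed Pdcd1lg2 most closely over the 14 arrays were Rbpms2 (Pearson r 0.99), Mcf2l (0.99), Vdr (0.99), Uck2 (0.99) and Ear1 (0.98). These values describe arrays that share groups, slides and brightness. Vdr, the vitamin D receptor, had a mean log2 level of 2.36 in Thio+IL-4c, -3.79 in Thio, -4.72 in IL-4c and -6.07 in PBS cells. Ear1, a ribonuclease, had 6.17, -0.50, -0.49 and -1.95 in that order of groups. The closest gene to each of the others was Igf2r for Cd274 (0.96), Mib2 for Cd80 (0.96), Zfyve21 for Cd86 (0.98), Fam43a for Cd40 (0.99), Taf1a for Icosl (0.93), Vmn2r75 for Cd276 (0.95) and Errfi1 for Tnfsf9 (0.98). Among the 8 genes, Cd86 and Cd40 had r of 0.91, Pdcd1lg2 and Tnfsf9 0.89, Cd274 and Cd40 -0.84, and Pdcd1lg2 and Cd274 0.19, all over 14 arrays.

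Other ligands of the immunoglobulin and lectin type that meet T cells were taken as a list of 21, of which 19 were measured. In Thio+IL-4c versus Thio cells 2 rose and 8 fell, with a median log2 difference of -0.25 (3 and 8 without Thio array 1, with a median of -0.065). Cd200, whose product restrains myeloid cells through its receptor, fell by 4.64 on the log2 scale (SE 0.22, adjusted p = 3.6e-08), with mean levels of -1.23 ± 0.45 in Thio+IL-4c and 3.41 ± 0.35 in Thio cells (SD, n = 4 and 3). Slamf7, an adhesion receptor of the SLAM family, fell by 3.69 (SE 0.21, adjusted p = 1.1e-07). The genes that rose were Nectin2, a ligand of TIGIT and DNAM-1, by 1.46 (SE 0.28, adjusted p = 0.0013), and Icam1, the ligand of the integrin LFA-1, by 1.02 (SE 0.22, adjusted p = 0.0027).

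In IL-4c versus PBS cells 2 of these 19 genes rose and 5 fell, with a median of -0.06 (5 and 6 in the fit without Thio array 1, where every group mean but that of Thio is the same). Vsig4, a complement receptor of resident macrophages that inhibits T cells, fell by 2.31 (SE 0.31, adjusted p = 0.00012) and Icam1 by 1.61 on the log2 scale (SE 0.22, adjusted p = 0.00012), so that Icam1 had an interaction of 2.63 (SE 0.31, adjusted p = 6.1e-05). In Thio versus PBS cells 7 rose and 5 fell (8 and 6 without Thio array 1). Cd200 had the largest rise of the list, 7.22 (SE 0.24, adjusted p = 1.6e-09), and Vsig4 the largest fall, -5.05 (SE 0.33, adjusted p = 3.3e-07). In Thio+IL-4c versus IL-4c cells, where 70.0% of all genes were called, 8 rose and 5 fell (9 and 5 without that array). In the interaction, where 32.7% of all genes were called, 3 were higher and 7 lower (4 and 7 without it), led by Cd200 at -4.58 (SE 0.31, adjusted p = 1.5e-06).

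Of 12 TNF family ligands and partners, 11 were measured. In Thio+IL-4c versus Thio cells 2 rose, Tnfsf10 (TRAIL, a death ligand) by 1.79 (SE 0.25, adjusted p = 0.00013) and Tnfsf14 (LIGHT) by 1.29 (SE 0.24, adjusted p = 0.00096), and 4 fell, of which Tnfsf13b (BAFF, a survival factor of B cells) by 2.06 on the log2 scale (SE 0.14, adjusted p = 3.7e-07) was the largest. The Tnfsf10 probe was well above background on 2 of 3 Thio arrays. In IL-4c versus PBS cells 1 rose, Tnfsf14 by 1.33 (SE 0.24, adjusted p = 0.00094), and 3 fell, with Tnfsf13b at -1.78 (SE 0.14, adjusted p = 1.4e-06) and Tnf at -1.02 (SE 0.22, adjusted p = 0.0029). Thio versus PBS had 2 higher and 6 lower, where 44.5% of all genes were called. Thio+IL-4c versus IL-4c had 2 higher and 8 lower, where 70.0% were called, and the interaction 1 higher and 2 lower, where 32.7% were called. The median log2 difference was -0.03 with IL-4 complex in elicited cells, -0.18 with it in resident cells, -1.04 for Thio over PBS, -1.11 for Thio+IL-4c over IL-4c and -0.03 for the interaction. Leaving out Thio array 1 gave 3 higher and 4 lower in Thio+IL-4c versus Thio (median 0.18), 1 higher and 4 lower in IL-4c versus PBS, 2 higher and 8 lower in Thio versus PBS (median -1.47), and 3 higher and 2 lower in the interaction (median 0.48).

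**Figure D4:**
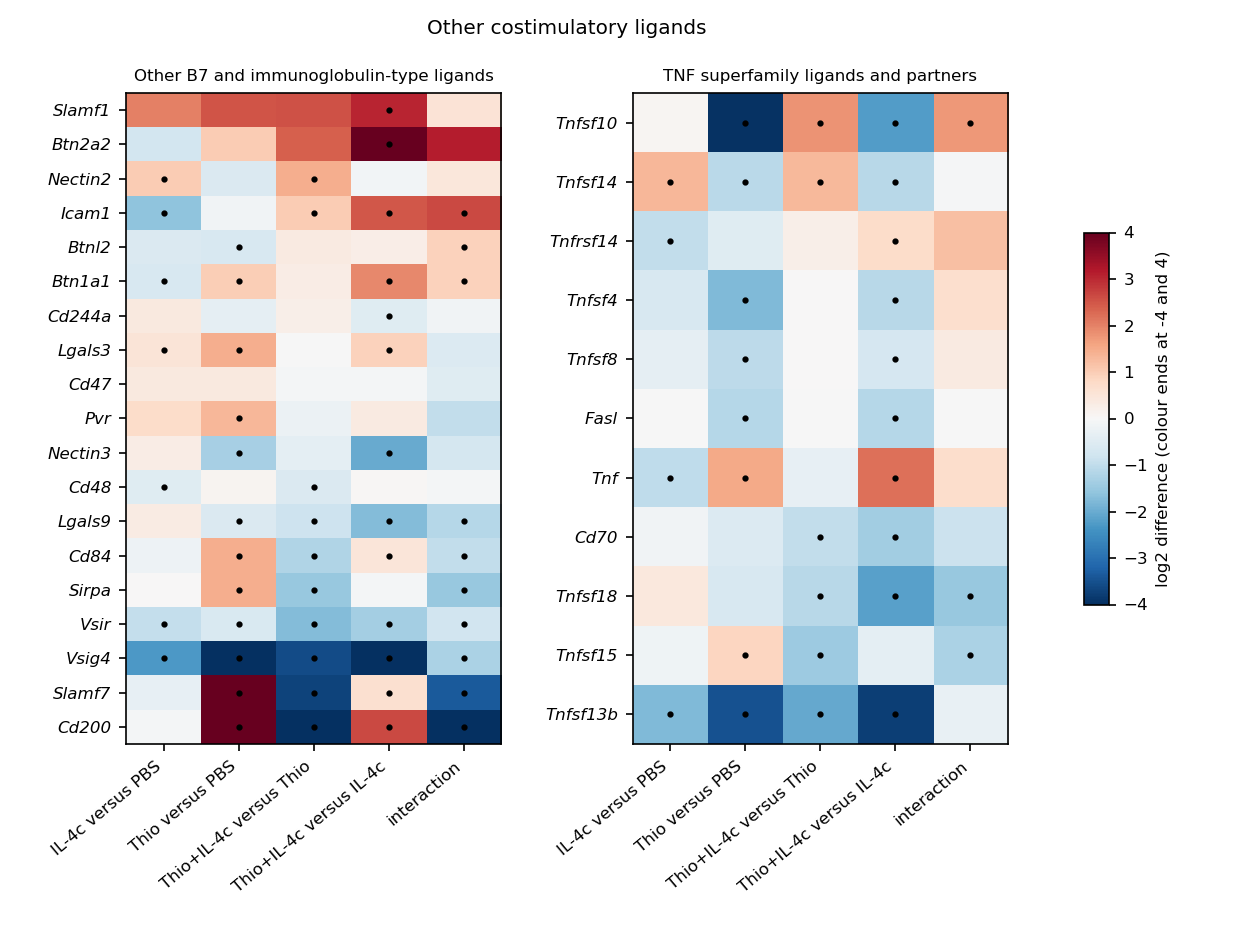
Log2 differences (colour, ending at -4 and 4) of other immunoglobulin-type and TNF family ligands in the 5 comparisons; dots mark an adjusted p under 0.05. Cd200 and Slamf7 are high in Thio versus PBS and low in Thio+IL-4c versus Thio, while Vsig4 and Tnfsf13b are low in all 4 group comparisons.

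A list of 22 regulators known to act on these genes held cytokine signalling and transcription factors. In Thio+IL-4c versus Thio cells 7 rose and 4 fell (8 and 4 without Thio array 1), with a median of 0.22. Irf4, a transcription factor that acts downstream of IL-4 in macrophages, rose by 2.91 (SE 0.12, adjusted p = 1.2e-08), with mean log2 levels of 1.72 ± 0.17 in Thio+IL-4c and -1.19 ± 0.08 in Thio cells (SD, n = 4 and 3). In resident cells Irf4 differed by 0.08 (SE 0.12, adjusted p = 0.70) between IL-4c and PBS, and its interaction was 2.82 (SE 0.17, adjusted p = 6.8e-07). Klf4, which cooperates with STAT6, rose in both, by 2.77 (SE 0.19, adjusted p = 4.1e-07) in Thio+IL-4c versus Thio and by 2.89 (SE 0.19, adjusted p = 3.7e-07) in IL-4c versus PBS cells.

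Klf4 was the 1 regulator that rose in IL-4c versus PBS cells, and 6 fell, among them the interferon response factor Irf1 by 1.24 on the log2 scale (SE 0.23, adjusted p = 0.0012). Pparg, a lipid sensing receptor that supports alternative activation, fell by 1.67 in Thio+IL-4c versus Thio cells (SE 0.25, adjusted p = 0.00021) and rose by 4.23 in Thio versus PBS cells (SE 0.27, adjusted p = 2.1e-07). In that comparison Irf4 fell by 2.62 (SE 0.13, adjusted p = 3.1e-08), and 5 regulators rose and 7 fell (5 and 8 without Thio array 1). Thio+IL-4c versus IL-4c had 13 higher and 4 lower (13 and 5 without it), where 70.0% of all genes were called. The interaction had 8 higher and 3 lower, where 32.7% of all genes were called.

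Of 13 receptors or partners of these proteins, most of them known from T cells, 1 rose and 3 fell in Thio+IL-4c versus Thio cells (2 and 2 without Thio array 1). Cd226 (DNAM-1) was called higher (adjusted p = 4.3e-05). No size is given, because its probe was well above background on all 4 Thio+IL-4c arrays but on 1 of 3 Thio arrays. Cd28 fell by 2.84 (SE 0.53, adjusted p = 0.0011). In IL-4c versus PBS cells 1 rose and 3 fell (1 and 5 without that array). The rise was Havcr2 (TIM-3, which macrophages also express), by 2.71 (SE 0.31, adjusted p = 3.2e-05). Cd226 was called lower in IL-4c than in PBS cells (adjusted p = 0.00042), again with no size given, because only 1 of 4 IL-4c arrays, against all 3 PBS arrays, had its probe well above background. Thio versus PBS had 3 higher and 2 lower (4 and 3 without it), where 44.5% of all genes were called. Thio+IL-4c versus IL-4c had 6 higher and 1 lower, where 70.0% were called, and the interaction 4 higher and 2 lower, where 32.7% were called.

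Markers of T and NK cells, which carry these receptors, moved on the same arrays. The 9 measured markers summed to 14.5 to 21.9 in Thio+IL-4c, 9.94 to 13.2 in Thio, 9.33 to 18.5 in IL-4c and 11.2 to 13.9 in PBS cells, in units of the 75th percentile of the array, and Cd4 alone made up 24.2% to 70.9% of the sum. None rose and 2 fell in Thio+IL-4c versus Thio cells (2 rose and 1 fell without Thio array 1), with Cd3d, of the T cell receptor complex, at -1.23 (SE 0.23, adjusted p = 0.0012). In IL-4c versus PBS cells none rose and 4 fell (6 without that array). Cd2, an adhesion receptor of T and NK cells, fell by 2.18 there on the log2 scale (SE 0.26, adjusted p = 4.6e-05), and the Cd3g probe passed that background limit on 0 of 4 IL-4c arrays and on all 3 PBS arrays. The part of T and NK cells in the receptor values was not tested. Levels are not comparable between probes, so these marker sums and those below weigh markers by probe brightness and give no share of cells.

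B cells also express PD-L2, CD80, CD86, CD40 and ICOSL and could pass a sort, so their markers were read on the same arrays. The summed signal of the 11 measured B cell markers, in the same units, was 4.88 to 5.47 in Thio+IL-4c, 4.56 to 5.77 in Thio, 3.85 to 4.89 in IL-4c and 10.1 to 19.6 in PBS cells. All 11 were well above background on every Thio+IL-4c and PBS array, and 10 or 11 on each of the others. Of the 11, none rose and 5 fell in IL-4c versus PBS cells (7 without Thio array 1), in Thio versus PBS cells none rose and 7 fell (1 and 7 without it), and in Thio+IL-4c versus Thio cells 2 rose and 2 fell. Ms4a1 (CD20) differed by -3.72 (SE 0.49, adjusted p = 9.0e-05) and Cd79b, of the B cell receptor, by -3.50 (SE 0.31, adjusted p = 4.4e-06) in IL-4c versus PBS. Cd80, Cd86 and Cd40 were highest on the PBS arrays, where the B cell sum was highest too, and the part of B cells in their values was not tested. The Icosl levels of the Thio+IL-4c arrays, where the B cell sum was at most 5.47, overlapped those of the PBS arrays, and the gene rose in Thio+IL-4c versus Thio cells, whose B cell sums overlapped. The part of B cells in the Icosl values was not tested either.

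Dendritic cells are the other known source of PD-L2. The 9 measured markers summed to 82.7 to 93.4 in Thio+IL-4c, 56.9 to 82.4 in Thio, 63.9 to 69.2 in IL-4c and 89.5 to 121 in PBS cells. Siglech alone made up 66.1% to 93.6% of that sum on each array. The other 8 summed to 19.6 to 29.7 in Thio+IL-4c, 5.77 to 6.64 in Thio, 11.1 to 12.4 in IL-4c and 7.13 to 8.55 in PBS cells, so that without Siglech the sum was highest on the Thio+IL-4c arrays, as was Pdcd1lg2. On the Thio+IL-4c arrays the brightest term of that sum was Batf3, with a mean log2 level of 4.35, and Flt3 was next with 0.68. Batf3 had 1.64 in Thio, 1.92 in IL-4c and 0.91 in PBS cells. The Cd209a probe was brighter than that of Batf3 in IL-4c (2.39) and PBS (1.22) cells. In Thio+IL-4c versus Thio cells 2 markers rose (3 without Thio array 1), Batf3 by 2.71 (SE 0.15, adjusted p = 1.1e-07) and Cd209a by 2.62 (SE 0.40, adjusted p = 0.00025), and 1 was called lower, Xcr1 (adjusted p = 0.0041). No size is given for Xcr1, because its probe was well above background on only 2 of 4 Thio+IL-4c and 2 of 3 Thio arrays. Resident cells had 2 higher and 2 lower in IL-4c versus PBS (2 and 3 without that array). The part of dendritic cells in the Pdcd1lg2 values was not tested. Of the 8 measured macrophage markers none rose and 6 fell in IL-4c versus PBS cells, with Lyz2 (lysozyme) at -7.28 (SE 0.23, adjusted p = 2.7e-09), and none rose and 4 fell in Thio+IL-4c versus Thio cells.

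Markers of the remaining cell types of the cavity also differed between groups. The 6 neutrophil markers summed to 4.87 to 12.6 in Thio+IL-4c, 3.37 to 4.74 in Thio, 0.616 to 0.981 in IL-4c and 1.44 to 1.61 in PBS cells. In Thio+IL-4c cells S100a9 alone made up 65.1% to 74.7% of the sum. The other 5 summed to 1.69 to 3.21 there and to 3.05 to 3.17 in Thio cells. Their sums were 0.513 to 0.742 in IL-4c and 1.27 to 1.46 in PBS cells. Of the 6 markers, S100a9, a calcium binding protein of neutrophils and monocytes, rose by 2.82 (SE 0.73, adjusted p = 0.0087) and Cxcr2, a chemokine receptor, by 1.097 (SE 0.34, adjusted p = 0.024) in Thio+IL-4c versus Thio cells, and none fell. In Thio versus PBS cells 2 rose and 1 fell (3 and 2 without Thio array 1), and in IL-4c versus PBS cells none rose and 1 fell. The 6 markers of mast cells and basophils summed to 1.497 to 1.98 in Thio+IL-4c, 1.96 to 4.48 in Thio, 3.16 to 3.52 in IL-4c and 6.22 to 7.56 in PBS cells. None of the 6 rose and 3 fell in IL-4c versus PBS cells (4 without Thio array 1), with the mast cell proteases Cma1 at -2.54 (SE 0.25, adjusted p = 9.0e-06) and Cpa3 at -2.49 (SE 0.40, adjusted p = 0.00039), and none rose and 2 fell in Thio+IL-4c versus Thio cells.

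The 8 mesothelial and stromal markers summed to 2.05 to 2.34 in Thio+IL-4c, 2.32 to 3.81 in Thio, 1.39 to 1.98 in IL-4c and 1.04 to 1.23 in PBS cells. In Thio versus PBS cells 5 rose and none fell (5 and 1 without Thio array 1), with a median log2 difference of 2.35, and the collagen gene Col1a1 and the mesothelial factor Wt1 were well above background on all 3 Thio arrays and on 0 of 3 PBS arrays. None rose and 2 fell in Thio+IL-4c versus Thio cells, and 1 rose and 2 fell in IL-4c versus PBS cells. Of the 5 eosinophil markers none rose and 1 fell in Thio+IL-4c versus Thio cells, 1 rose and none fell in IL-4c versus PBS cells (1 and 3 without that array), and 2 rose and 2 fell in Thio versus PBS cells. The part of these cell types in the values of the 8 genes was not tested.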

How the data were processed

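The authors deposited 1 scanner table per array with spot intensities on a linear scale (Cy3 only), extracted with Agilent Feature Extraction 11.0.1.1 per the file headers (the submitters' processing notes name version 11.5, and limma), and a table of their own log2 values, with a background correction that the sources used here do not state. In that deposited log2 table all arrays share a median of 9.2341, and it correlates with the log2 median signal at r of 0.989 to 0.995.

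The processed signal was used: log2, minus the 75th percentile of the array. Control spots (3671 of 62976) and 113 to 165 outlier spots per array were left out, spots of a probe were averaged, and no spot was saturated. Probes were named by accession through RefSeq GRCm38.p6 (27235 probes with 1 symbol, 28446 with none). Probes well above background on 3 or more arrays were kept, the brightest standing for its gene. limma 3.58.1 in R 4.3.3 fitted all 14 arrays with 1 mean per group. "Called" means that the two-sided p, adjusted by Benjamini-Hochberg over 20347 genes, was under 0.05, and every adjusted p is limma's. The fit was tested on simulated data. The number of arrays limits the precision.

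All 8 genes were named whatever their call. From lists, the named genes came from the 2 strongest called rises and 2 strongest called falls per comparison, and the text gives a selection of these; 1 regulator is not reported here by name. Regulators and TNF partners given beyond their counts follow that rule, except Irf4 in IL-4c versus PBS, shown for comparison after its value was seen. The members and lists were chosen with earlier results of these data known.

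Arrays with the same replicate number did not deviate together (19 pairs, r -0.45 to 0.37, 4 over 0.1), so the numbers were not used as pairs. Alternatives were other normalizations, background corrections, filters, slide as a block, array weights, a replicate block, fits of the compared groups alone, the deposited log2 table and the omission of each array. The planned normexp correction on mean signals was run on median signals, chosen after seeing the data because the tables used here hold no mean signal.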

Additional observations from a re-analysis of the deposited data

Results flagged for a closer look

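In a group of 4 arrays, 2 of the 16 gene and group pairs had an array whose gap to its neighbour exceeded Dixon's critical value, which chance exceeds in about 1 of 20. Cd86 read 0.65 (log2 level) on Thio+IL-4c array 2, above -0.08 to 0.00 on the other 3 arrays of that group. Tnfsf9 read 0.038 on Thio+IL-4c array 4, above -0.58 to -0.52 on the others.

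The effect of IL-4 complex on 6 of the 8 genes differed between elicited and resident cells by the interaction test of limma's fit, in which 32.7% of all genes were called. The elicited minus resident difference of log2 effects was 2.85 for Pdcd1lg2, -2.75 for Cd274, 1.65 for Cd86, 1.35 for Cd40, 3.22 for Icosl and 1.91 for Tnfsf9, with adjusted p of 2.1e-05, 5.4e-05, 0.0010, 2.2e-05, 7.3e-05 and 0.00020 in the same order. Each kept its sign and its call under all 14 single-array omissions and all 12 other settings run.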

How the results depend on the processing

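Over the differences of the 8 genes, with counts of calls left out, 468 of 517 values from other settings and 525 of 560 from omitting 1 array kept their direction and side of the threshold. With Thio versus PBS, the genes called were 9051 in the fit reported, 6017 with slide as a fixed block, 5843 with slide as a random block, 14509 with array weights, 3919 with only the arrays of those groups, and 6231 to 13875 when 1 array was omitted, the highest without Thio array 1. For Thio+IL-4c versus IL-4c the genes called were 14253 in the fit reported, 5427 with slide fixed and 5596 with slide random, and those of the 8 called 7, 3 and 3 in that order. Signs turned for these values, none of them called unless stated. Cd276 in IL-4c versus PBS gave 0.12 with normexp and quantile normalization and 0.15 with array weights (-0.65 to 0.39 omitting 1 array). Tnfsf9 in Thio versus PBS gave -0.0075 with quantile normalization, -0.015 with normexp and quantile, and -0.049 with median scaling (-0.019 to 0.18 omitting 1 array). In Thio+IL-4c versus Thio, Cd276 gave -0.030 with quantile normalization, -0.053 with normexp and quantile, -0.35 and -0.26 with slide fixed and random, -0.36 with array weights and -0.041 in the authors' deposited table (-0.35 to 0.57 omitting 1 array). Cd86 there gave 0.093 with array weights (-0.20 to 0.056 omitting 1 array), and the dimmer Cd80 probe gave 0.45 (called). Icosl in Thio+IL-4c versus IL-4c gave -0.019 with slide fixed. In the interaction, Cd276 gave -0.0031 with quantile normalization, -0.17 with normexp and quantile, -0.075 with slide fixed and -0.51 with array weights (-0.24 to 0.85 omitting 1 array), and Cd80 gave -0.025 with median scaling and -0.29 in the authors' deposited table. The causes were not tested. With the replicate block, the Cd80 difference in Thio+IL-4c versus IL-4c (-0.39) lost its call (adjusted p 0.057, 0.00052 to 0.59 over all other settings), and no other call among the 8 changed. Median scaling moved the median difference of all genes in Thio+IL-4c versus IL-4c from -0.21 to -0.53, and normexp moved the share of interaction calls that were higher to 51.0% from 39.0%.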
